A study of Mus musculus with 4 samples.

Results

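The cells described here carried RNA of the regulators that commit a cell to skeletal muscle but little RNA of 6 genes of the contractile apparatus. They were taken from single-cell RNA-seq of mesenchymal progenitor cells (MPC) of the mouse line C3H10T1/2 after 5-Azacytidine (5-Aza), an inhibitor of DNA methyltransferases. A barcode was kept as a cell when it had at least 5000 UMIs (unique molecular identifiers, each standing for 1 captured RNA molecule), at least 1500 genes and at most 20% mitochondrial UMIs. A kept cell of a 5-Aza library was a sarcomere-low cell when Myog, Myod1, Mymk and Mymx, the 4 regulators, summed to at least 3 UMIs while Acta1, Actc1, Mylpf, Myl1, Tnnc2 and Tnnt3, the 6 sarcomeric genes, together made up less than 1% of its UMIs. This rule found 478 cells among 22049 kept cells of 4 libraries, 152 in the H3WT and 326 in the H3R26C 5-Aza library. Regulator-positive cells at or above 1% are called sarcomere-rich here, and kept cells of the same library without a UMI of any regulator served for comparison. Since the regulator and sarcomeric counts chose the cells, those counts, and every contrast with cells chosen by the same counts, are descriptions.

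The series asked how a cancer-associated change of histone H3 affects the differentiation of MPC. All 4 libraries came from the Clone 8 line transduced with a lentivirus that drives an HA- and FLAG-tagged human histone H3 from the EF1 promoter, selected with puromycin, so that the H3WT control also carried a transgene and every endogenous H3 gene was intact. The groups were H3WT with DMSO, H3WT with 5-Aza, H3R26C with DMSO and H3R26C with 5-Aza, with 1 library each. The dose of 5-Aza was 3 µM over 24 h, and differentiated cells were harvested on day 28. The day is not stated for the DMSO cells, and cells were dissociated and strained before capture. With 1 library per condition no difference between conditions could be tested, genotype and library cannot be told apart, and all intervals are 95% intervals of counting error only.

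The kept cells numbered 3710 of 6239 barcodes for H3WT DMSO, 5993 of 15002 for H3WT 5-Aza, 4727 of 6540 for H3R26C DMSO and 7619 of 12110 for H3R26C 5-Aza. Their UMIs summed to 86871326, 84345500, 84060490 and 110712425 in that order. The 5-Aza libraries shared 228 barcodes, of which 58 were kept in both and 1 was a sarcomere-low cell in both. Where 2 values follow each other below, the first is from the H3WT and the second from the H3R26C 5-Aza library. Levels are CPM, the UMIs of a gene summed over a group of cells and scaled to a common total.

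Skeletal muscle is made in steps. Myod1 and Myog encode basic helix-loop-helix transcription factors that bind E-boxes, short sites with the letters CANNTG, at muscle genes, and Myod1 can impose the muscle fate on fibroblast-like cells. Myoblasts then leave the cell cycle, Mymk (myomaker) and Mymx (myomixer) let their membranes fuse, and the contractile genes are switched on in quantity. C3H10T1/2 cells are the classic setting in which 5-Aza awakens Myod1.

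The promoters of a regulator, a receptor and a contractile gene are shown with their matches to the letters CANNTG. They are Myog, the acetylcholine receptor subunit Chrna1, which is used before the sarcomere is complete, and the actin Acta1, which the rule held low. Each run is the 250 bases before the start of the RefSeq transcript (GRCm38.p6), 5′ to 3′ on the strand of the gene, with CANNTG matches in capitals. The windows are chr1:134289754-134290003 on the plus strand for Myog, chr2:73580339-73580588 on the minus strand for Chrna1 and chr8:123894776-123895025 on the minus strand for Acta1.
Myog: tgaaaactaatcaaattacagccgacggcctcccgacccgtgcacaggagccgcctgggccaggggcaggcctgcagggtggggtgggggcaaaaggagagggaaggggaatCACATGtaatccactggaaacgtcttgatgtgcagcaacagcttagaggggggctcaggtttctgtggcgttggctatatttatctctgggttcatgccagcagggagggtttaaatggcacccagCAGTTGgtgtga
Chrna1: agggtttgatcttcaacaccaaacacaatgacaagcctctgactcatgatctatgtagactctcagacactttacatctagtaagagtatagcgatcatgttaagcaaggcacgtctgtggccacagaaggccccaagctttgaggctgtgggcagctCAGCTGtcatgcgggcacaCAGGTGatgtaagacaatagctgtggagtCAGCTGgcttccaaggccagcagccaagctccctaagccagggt
Acta1: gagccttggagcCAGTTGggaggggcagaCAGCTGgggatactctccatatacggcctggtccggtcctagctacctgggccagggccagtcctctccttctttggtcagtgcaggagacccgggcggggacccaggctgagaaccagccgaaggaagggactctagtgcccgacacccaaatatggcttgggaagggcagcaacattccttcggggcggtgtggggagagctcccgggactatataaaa
The Myog window held 2 matches, CACATG at position -138 and CAGTTG at -12 from the start. The Chrna1 window held 3, with CAGCTG, the form preferred by the myogenic factors, at -92 and -44 and CAGGTG at -73. The Acta1 window held CAGTTG at -238 and CAGCTG at -221, and also 1 CArG box, the site of serum response factor. CANNTG reads the same on both strands and is common: of 32851 RefSeq promoter windows of this length 66.2% held at least 1 match, 31.8% at least 2 and 12.2% at least 3, while 13.0% held CAGCTG, 1.26% held it at least 2 times and 1.47% held a CArG box. A match is a description of the letters, not of binding. Of the 10 genes of the rule, 6 were matched by symbol in the promoter table, without Myod1, Mymk, Mymx and Tnnt3.

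Sarcomere-low cells were found in both 5-Aza libraries and in neither DMSO library. They made up 2.54% (2.15 to 2.97) of the kept cells of H3WT 5-Aza and 4.28% (3.84 to 4.76) of H3R26C 5-Aza, with a ratio of the shares of 1.69 (1.39 to 2.06). With 0 cells, the DMSO libraries allow shares of up to 0.0809% for H3WT and 0.0635% for H3R26C, and only 12 and 9 of their cells carried any regulator UMI, none more than 1. Sarcomere-rich cells numbered 96 and 166, a ratio of their shares of 1.36 (1.05 to 1.77). Sarcomere-low cells therefore made up 61.3% (54.9 to 67.4) of 248 and 66.3% (61.9 to 70.4) of 492 regulator-positive cells, and these intervals overlap. A further 792 (13.2%) and 1529 (20.1%) kept cells carried 1 or 2 regulator UMIs, and 4953 and 5598 carried none.

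**Figure D1:**
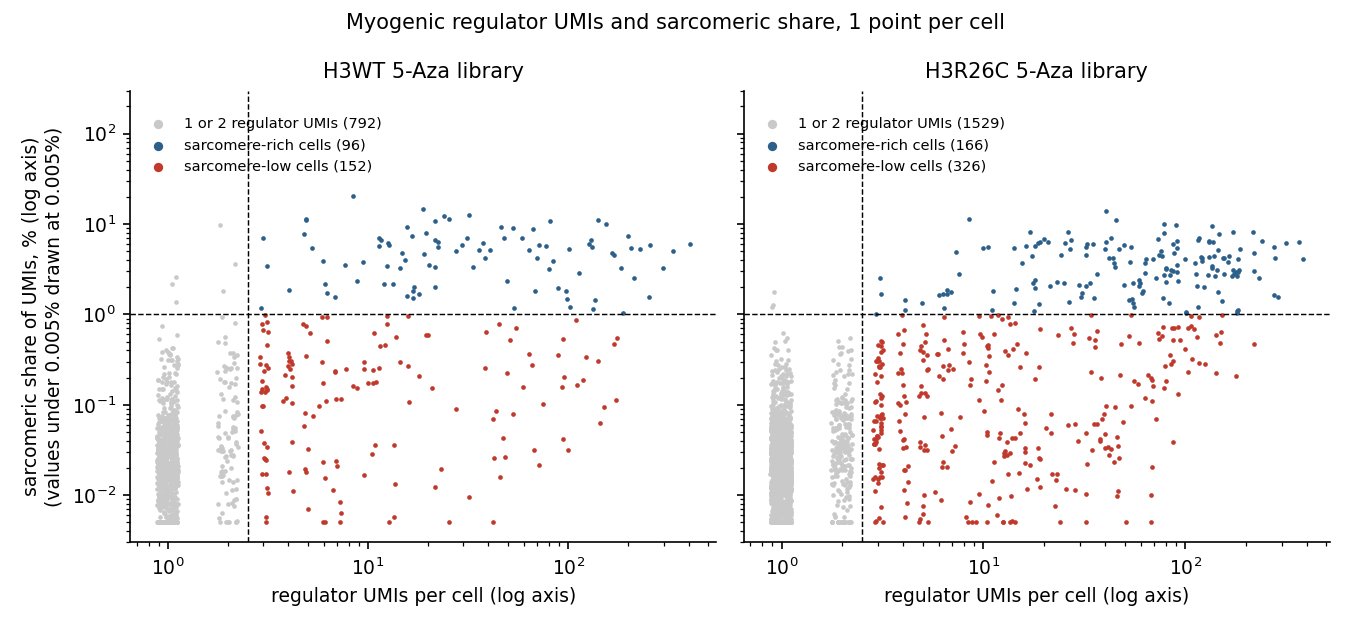
Each point is a kept cell of a 5-Aza library with at least 1 regulator UMI, with the summed UMIs of the 4 regulators on a log x axis and the share of UMIs from the 6 sarcomeric genes, in percent, on a log y axis; dashed lines mark the limits of the rule. The 152 and 326 sarcomere-low cells fill the field below the 1% line without a gap at either limit.

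Sarcomere-low cells were deeper than cells without regulator RNA and, by their median, shallower than sarcomere-rich cells. Their median was 15869 and 17947 UMIs, against 16133 and 21967.5 in sarcomere-rich cells and 13117 and 12852.5 in cells without regulator RNA. Of the sarcomere-low cells, 20.4% and 16.3% lay among the 5% of kept cells with the most UMIs, against 25 and 33.7% of sarcomere-rich cells and 4.14% and 3.48% of cells without regulator RNA. No doublets were removed, and the part of doublets in these cells was not tested beyond leaving the deepest cells out. Their median mitochondrial share was 2.71 and 2.1%, against 2.87 and 2.59% in cells without regulator RNA.

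Most sarcomere-low cells carried Myog, but the rule does not require it, so the name regulator-positive fits them better than Myogenin-positive. A UMI of Myog was found in 75% (67.3 to 81.7) and 79.4% (74.6 to 83.7), of Myod1 in 72.4% (64.5 to 79.3) and 78.2% (73.3 to 82.6), of Mymk in 61.8% (53.6 to 69.6) and 51.8% (46.3 to 57.4), and of Mymx in 48.0% (39.9 to 56.3) and 70.6% (65.3 to 75.4). All 4 were found together in 23.0% and 29.1% of cells and 1 alone in 21.1% and 8.90%, most often Myod1 with 19 and 23 cells. The summed regulators ran from 3 UMIs to 174 and 216 per cell, with medians of 7 and 11.

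The levels of the regulators in sarcomere-low cells, with their intervals, were 830.3 (796 to 865) and 685 (664 to 706) CPM for Myog and 292 (272 to 313) and 295 (281 to 308) CPM for Myod1. The fusion genes stood at 219 (201 to 237) and 146 (137 to 156) CPM for Mymk and 119 (106 to 133) and 217 (205 to 229) CPM for Mymx, so Mymk was the higher of the pair in the H3WT and Mymx in the H3R26C library. In sarcomere-rich cells Myog was at 1686 and 1588, Myod1 at 444 and 376, Mymk at 1436 and 953 and Mymx at 438 and 973 CPM. The balance of the 4 differed between these cells: for each Mymk UMI the sarcomere-low cells held 1.34 and 2.02 Myod1 UMIs, and the sarcomere-rich cells 0.309 and 0.395. Myog lies at chr1:134289989-134292548, Myod1 at chr7:46376474-46379099, Mymk at chr2:27061636-27072179 and Mymx at chr17:45600971-45602102 (GRCm38, GENCODE).

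Neither limit of the rule falls in a gap. At exactly 3 regulator UMIs there were 32 and 64 cells, while 101 and 228 cells with 2 UMIs fell just short. The highest sarcomeric share inside was 0.995% and 0.994%, and the lowest outside was 1.04% and 1.02%. Between 0.8% and 1% lay 7 and 12 cells, and between 1% and 1.25% lay 5 and 12.

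The RNA of the 6 sarcomeric genes was low in these cells but stood above that of cells without regulator RNA. Its median share of UMIs was 0.154% and 0.0797% per cell, against 0.0169% and 0.0190% in cells without regulator RNA and 5.01% and 3.25% in sarcomere-rich cells. Acta1, skeletal α-actin, was at 628 and 622 CPM, against 92.4 and 89.2 in cells without regulator RNA and 20809 and 16105 CPM in sarcomere-rich cells. After every cell was thinned to 5000 UMIs, an Acta1 UMI was found in 63.2% (55 to 70.8) and 57.7% (52.1 to 63.1) of sarcomere-low cells (79.6% and 82.5% before thinning) and in 33% and 35.9% of cells without regulator RNA, a level at which free RNA from broken cells also counts. The part of free RNA in these levels was not tested.

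A minority of the sarcomere-low cells stood apart by Malat1, a long noncoding RNA that stays in the nucleus. Malat1 made up 2% or more of the UMIs, a limit chosen after the values were seen, in 41 of 152 (27.0%) and 35 of 326 (10.7%) sarcomere-low cells, against 6.80% and 8.65% of cells without regulator RNA and 7.29% and 16.3% of sarcomere-rich cells. In these Malat1-rich cells its median share was 14.4% and 8.08%, with medians of 13630 and 12447 UMIs and 3431 and 3483 genes. Their median mitochondrial share was 5.65% and 7.77%, against 2.57% and 2.06% in the other sarcomere-low cells. They carried long sarcomeric RNAs that the rule does not count. Ttn, which encodes titin, was at 36198 and 44370.4 CPM in them and at 228 and 502 CPM in the other sarcomere-low cells. Neb, which encodes nebulin, was at 6356 and 4128 against 31.4 and 59.9 CPM, and Ryr1, the calcium release channel, at 876 and 805 against 33.3 and 28 CPM. Cells of high Malat1 therefore held most of the Ttn, Neb and Ryr1 UMIs of the sarcomere-low cells in both libraries. The 40 sarcomeric genes outside the rule, Ttn among them, summed to 51077 and 60134 CPM in the Malat1-rich cells. Their sum was 2163 and 1953 CPM in the other sarcomere-low cells and 41716 and 29335 CPM in sarcomere-rich cells. For the Malat1-rich cells the name sarcomere-low thus holds only for the 6 genes of the rule.

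Other genes differed in either direction, with examples picked after their values were seen. Myog was at 472 and 465 CPM in Malat1-rich cells against 937 and 701 CPM in the others, the proliferation gene Mki67 at 9.77 and 9.31 against 161 and 139.9 CPM, and the transcription factor gene Sox8 at 6.51 and 0 against 84.1 and 52.2 CPM, all lower in the Malat1-rich group. Acta1 was at 1038 and 2267 against 506 and 498 CPM, the receptor subunit gene Chrng at 269 and 458 against 22.2 and 95.2 CPM and the troponin gene Tnnt2 at 711 and 484 against 217 and 86.7 CPM, all higher in them. The unannotated RNA Gm26917 was at 12185 and 4026 against 113 and 219 CPM. Whether these barcodes were nuclei, damaged cells or whole cells was not tested. Counts of genes called in a list against cells without regulator RNA are given for all sarcomere-low cells and, where they change, also without the Malat1-rich ones, which leaves 111 and 291 cells.

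**Figure D2:**
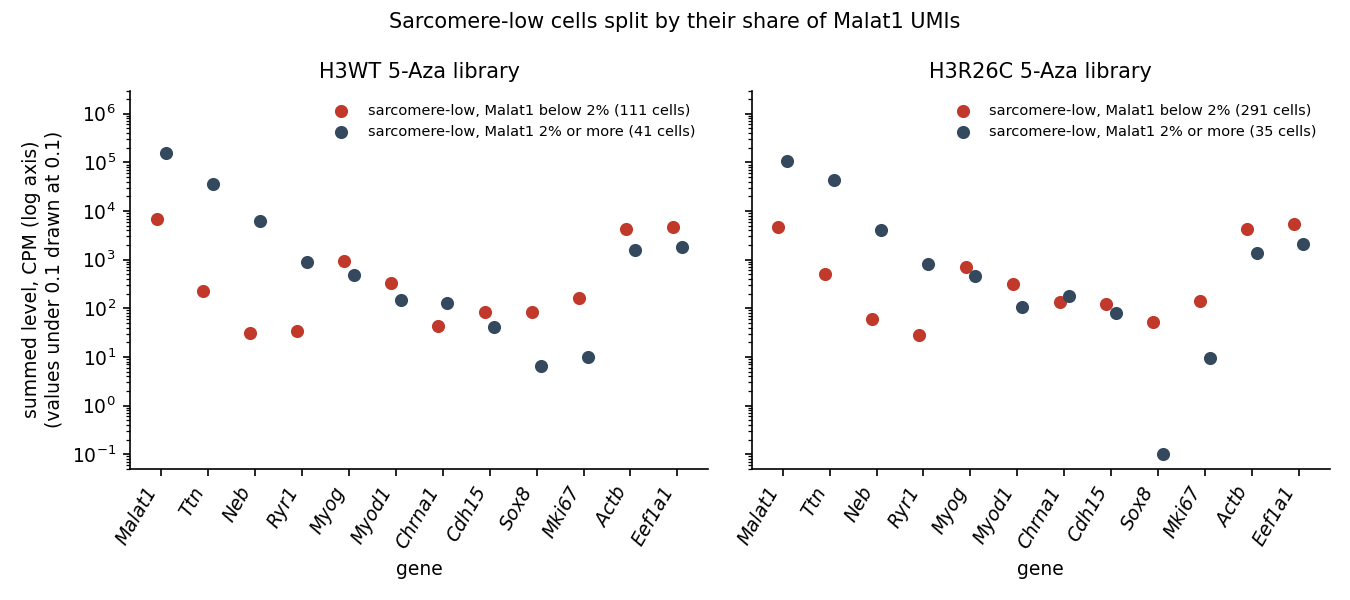
Summed levels in CPM on a log y axis of 12 genes in sarcomere-low cells with Malat1 below 2% of UMIs and with 2% or more, for each 5-Aza library; values under 0.1 CPM are drawn at 0.1. Malat1, Ttn, Neb and Ryr1 are higher in the Malat1-rich cells of both libraries, and Sox8 and Mki67 are lower.

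Against cells without regulator RNA, the sarcomere-low cells were at least 2-fold higher in both libraries for 253 of 8752 genes (2.89%) and at least 2-fold lower for 124 (1.42%). The genes compared reached 10 CPM on average over the 4 sums, and the median log2 ratio over all of them was -0.02 and -0.06. Without Malat1-rich cells on either side the counts were 193 (2.25%) and 90 (1.05%) of 8596 genes. For sarcomere-low cells with at least 5 regulator UMIs they were 349 and 322 of 8760 genes. With at least 10, a limit added after the values were seen, they were 397 and 486 of 8732, so the balance turned. Nothing is read from these shares, because the regulators chose the cells. Outside the rule the 12 genes with the largest rise were Cdh15, Cacng1, Ttn, Pdlim3, Chrng, Sox8, Chrnd, Gm28653, Myh3, Neb, Chrnb1 and Ryr1, of which Pdlim3 and Gm28653 fell below the minimum once Malat1-rich cells were left out. A muscle gene near 0 in cells without regulator RNA reaches that minimum only by being high in sarcomere-low cells, so the counts of muscle lists below describe the genes that passed and support nothing.

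Among genes of adhesion and fusion, Cdh15, which encodes M-cadherin of the myoblast surface, was at 73.4 (63.5 to 84.4) and 121 (113 to 130.3) CPM in sarcomere-low cells and at 0.508 and 0.777 CPM in cells without regulator RNA, a ratio of 145 (101 to 214) and 156 (120.2 to 206). Its level in sarcomere-rich cells was 69.1 and 117 CPM, so Cdh15 RNA stood as high in sarcomere-low as in sarcomere-rich cells. A Cdh15 UMI was found after thinning in 22.4% (16 to 29.8) and 32.2% (27.2 to 37.6) of sarcomere-low cells (40.8% and 55.2% before) and in 0.162% and 0.518% of cells without regulator RNA. Itga7, the laminin receptor subunit of muscle, was at 62.2 and 114 against 2.58 and 5.31 CPM, and Dysf, a membrane repair gene, at 22.7 and 16.6 against 8.28 and 6.32 CPM. These 3 were the members of the list called higher among 18 compared of 20, with a list median of 0.16 and -0.04 (log2), and Dysf dropped out without Malat1-rich cells. Ncam1 was at 167 and 207 against 82.9 and 119 CPM and Vcam1 at 95.4 and 98 against 87.2 and 110.4 CPM, neither past 2-fold in both libraries.

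Genes of the muscle acetylcholine receptor included 4 subunits called higher. Chrna1, which carries the ligand site, was at 61.5 (52.5 to 71.6) and 135 (125 to 144) CPM against 2.26 and 7.13 CPM in cells without regulator RNA. Chrnd was at 57.8 and 79.8 against 1.29 and 1.48 CPM, Chrnb1 at 33.2 and 39.1 against 0.769 and 0.968 CPM and Chrng, the fetal subunit, at 78.6 and 121 against 1.97 and 3.22 CPM. The adult subunit Chrne stayed at 2.24 and 0.163 CPM. Of the 11 genes of receptor and synapse, 7 were compared and 5 were called higher, with Rapsn, which clusters the receptor, as the fifth; the list medians were 4.26 and 4.06, and 3.03 and 4.05 without Malat1-rich cells, when the same number was called. The summed level of the list was 365 and 459 CPM in sarcomere-low, 47.5 and 55 CPM in regulator-negative and 1238 and 2085 CPM in sarcomere-rich cells. In sarcomere-low cells with Malat1 below 2% the sum was 209 and 406 CPM, and Chrng was at 22.2 and 95.2 CPM.

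Of the 19 calcium handling genes 13 reached the minimum, and Ryr3 and Sln had no UMI in any sarcomere-low cell. These 13 were all called higher, with medians of 3.92 and 3.57, and 9 of 10 without Malat1-rich cells. Cacng1, a subunit of the muscle voltage-gated calcium channel, was at 138 and 183 against 1.48 and 5.12 CPM, and Stac3, which couples that channel to the release channel, at 67.1 and 43.6 against 1.39 and 1.81 CPM; both kept their levels without Malat1-rich cells, Cacng1 at 134 and 188 and Stac3 at 59.4 and 42 CPM. Ryr1 fell from 226 and 82.4 to 33.3 and 28 CPM by that step, so most of its signal lay in the Malat1-rich cells.

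Of 40 sarcomeric genes outside the rule 26 reached the minimum and 25 were called higher, with medians of 3.93 and 3.11. Without Malat1-rich cells 16 could be compared, of which 14 were called, with medians of 2.26 and 2.15. Of the early isoforms, Myh3, the embryonic myosin heavy chain, was at 28.5 and 56.2 CPM in sarcomere-low against 9.97 and 11.4 CPM in regulator-negative cells, both with Malat1 below 2%, Tnnt2, the cardiac troponin T that immature muscle also makes, at 217 and 86.7 against 14.5 and 11.8 CPM and Tnnt1, the slow form, at 73 and 30.1 against 11.4 and 11.2 CPM. Sarcomere-rich cells with Malat1 below 2% held 1088 and 1255 CPM of Myh3, 1765 and 1149.7 of Tnnt2 and 668 and 417 of Tnnt1.

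Of the muscle energy genes 5 of 8 compared were called higher, with and without Malat1-rich cells: Ckm, the muscle creatine kinase, at 64.1 and 25.1 against 8.82 and 4.39 CPM, Eno3, the muscle enolase, at 228 and 421 against 18.5 and 54.9 CPM, and Mb, Cox6a2 and Cox8b. Of the cytoskeleton and costamere genes 6 of 12 were called, and without Malat1-rich cells 3 of 10, the intermediate filament genes Des at 90.4 and 101 against 7.55 and 10.02 CPM and Nes at 89.9 and 180.3 against 23.6 and 42.6 CPM and the small heat shock gene Cryab at 472 and 247 against 103 and 80.7 CPM. Dmd, the dystrophin gene, was called only with the Malat1-rich cells, in which it was at 149.7 and 100.1 CPM, against 0.483 and 0.175 CPM in the other sarcomere-low cells.

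Of the 18 other myogenic transcription factors, 13 were compared and 5 were called higher: Hes6, a cofactor that promotes differentiation, at 95.4 and 106 against 32.8 and 37.4 CPM, Smarcd3, a subunit of the SWI/SNF remodeler, at 52.2 and 42 against 23.3 and 20.1 CPM, and Ankrd1, Bhlhe41 and Tead4, the last no longer without Malat1-rich cells. The list medians were 1.51 and 0.91, and 0.82 and 0.61 without these cells. Mef2c, a partner of the myogenic factors, was at 109 and 70.5 against 26.9 and 37.1 CPM and was not called in both libraries. With Malat1-rich cells left out on both sides it was at 47.4 and 42.2 against 26.5 and 35.9 CPM. Myf5 and Myf6, the remaining members of the Myod1 family, had no UMI in any sarcomere-low cell, and Pax7, the satellite cell factor, was at 0 and 1.63 CPM. Of these 4 bHLH factors the sarcomere-low cells thus held Myod1 and Myog at this depth.

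Of 15 genes that inhibit myogenic factors 10 were compared and 1 was called higher, Id2, at 149 and 116 against 63.7 and 34.8 CPM, with list medians of 0.10 and -0.15. Id3, which binds the partners of Myod1, was at 397 and 295 against 443 and 344 CPM. Of the Notch ligands and receptors 1 of 5 compared was called, the receptor Notch1, at 63 and 52.3 against 26.7 and 22.4 CPM, and the ligand Dll1 was at 18.3 and 18.2 against 0.682 and 0.65 CPM, below the mean for comparison.

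Sox8, a transcription factor of the SoxE family, was higher in sarcomere-low cells than in either other group. Its level was 66.3 (56.9 to 76.8) and 48.5 (43.2 to 54.4) CPM in them, 1.62 and 0.471 CPM in cells without regulator RNA and 6.12 and 9.38 CPM in sarcomere-rich cells. A Sox8 UMI was found after thinning in 15.8% (10.4 to 22.6) and 16.9% (13 to 21.4) of sarcomere-low cells (30.3% and 33.1% before), in 0.828% and 0.25% of regulator-negative and in 1.04% and 2.41% of sarcomere-rich cells. Sox8 was named by the ranking rule, and 2 further genes with a higher level in sarcomere-low than in either other group were picked after their values were seen. The tetraspanin gene Cd82 was at 191 and 298 CPM in sarcomere-low, 20.7 and 49.9 in regulator-negative and 98.5 and 153 CPM in sarcomere-rich cells. Met, the receptor of hepatocyte growth factor, was at 36.9 and 94.6, 11.7 and 45.2 and 7.34 and 22.5 CPM in the same order.

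Of the imprinted and growth genes 3 of 10 compared were called higher, and 4 of 10, with Mest, without Malat1-rich cells. H19 was at 797 and 897 against 67.2 and 123 CPM, and its neighbour Igf2, an insulin-like growth factor, at 468 and 145 against 33.5 and 31.7 CPM; in sarcomere-rich cells H19 was at 1778 and 3252 and Igf2 at 603 and 334 CPM. Peg3 was at 19.4 and 93.3 against 0.74 and 2.48 CPM and fell to 2.42 and 49.9 CPM without Malat1-rich cells. H19 and Igf2 kept their levels by that step, H19 at 865 and 915 and Igf2 at 563 and 145 CPM.

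**Figure D3:**
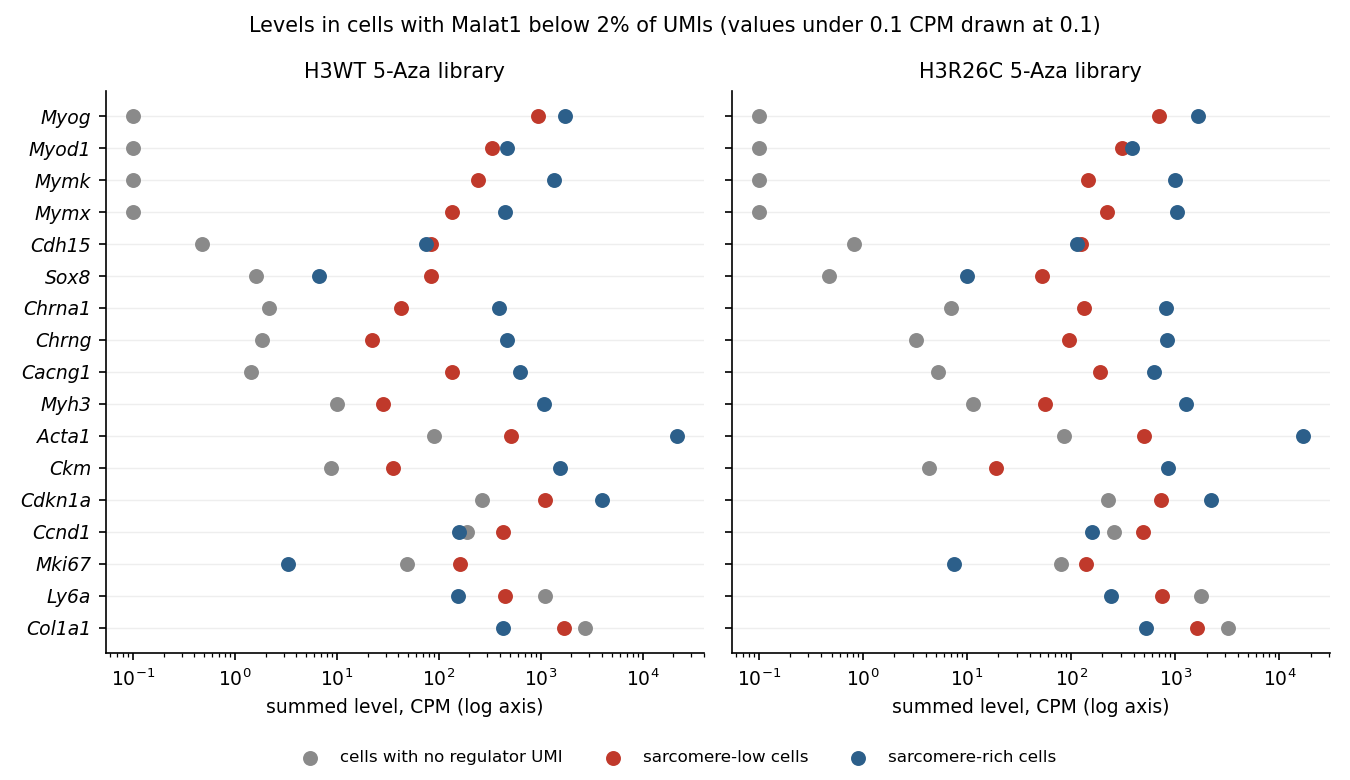
Summed levels in CPM on a log x axis of 17 genes in cells without a regulator UMI, sarcomere-low cells and sarcomere-rich cells of each 5-Aza library, all with Malat1 below 2% of UMIs; values under 0.1 CPM are drawn at 0.1. Cdh15 lies at the same place in sarcomere-low and sarcomere-rich cells, Sox8 is highest in sarcomere-low cells, and Mki67 is lowest in sarcomere-rich cells.

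Many sarcomere-low cells carried RNA of mitosis genes. The summed level of 20 mitosis genes was 1609 and 2017 CPM in them, 706 and 1365 CPM in cells without regulator RNA and 91.8 and 210.5 CPM in sarcomere-rich cells. None of the 20 was 2-fold higher than in regulator-negative cells in both libraries, with list medians of 1.15 and 0.63, and 1.48 and 0.68 without Malat1-rich cells. Leaving out the deepest 5% of kept cells brought the medians to 0.89 and 0.17, so much of the difference in the H3R26C library was gone without the deepest cells. Of the S-phase genes 1 of 18 compared was called, Rrm2, the small subunit of ribonucleotide reductase, at 73 and 62.4 against 15 and 27.1 CPM, with list medians of 0.78 and 0.68. Without Malat1-rich cells 2 of 19 were called, with the helicase subunit gene Mcm2 at 25.6 and 38.5 against 12.1 and 17.3 CPM as the other one.

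Cell by cell, at least 3 of the 20 mitosis genes were found after thinning in 21.1% (14.9 to 28.4) and 35.9% (30.7 to 41.4) of sarcomere-low cells (29.6 and 50.9% before thinning). The share was 7.71 and 18.6% in cells without regulator RNA (13.4 and 30.05% before) and 1.04 and 3.01% in sarcomere-rich cells. Among sarcomere-low cells with Malat1 below 2%, those with at least 3 mitosis genes, 31 and 115 cells, held Myog at 881 and 396 CPM, Myod1 at 424 and 281 CPM and Cdh15 at 77.8 and 125 CPM. In the 80 and 176 cells with fewer, Myog was at 966 and 947 CPM, Myod1 at 288 and 332 CPM and Cdh15 at 86 and 124 CPM. The median depth was 22367 and 21282 UMIs in the former and 15650.5 and 17432 in the latter. The rule asked for regulator UMIs in every one of these cells, and the split was made by the mitosis genes, so that both kinds of RNA lay under 1 barcode was set by the choice of cells. Whether some of these barcodes held more than 1 cell was not tested.

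Of the 10 compared genes of cell cycle exit 3 were called higher, Cdkn1a, Rb1 and Gadd45a, with list medians of 0.55 and 0.10. Cdkn1a, the cyclin-dependent kinase inhibitor that Myod1 is known to induce, was at 1043 (1004 to 1082) and 728 (707 to 749.5) CPM against 262 and 225 CPM in regulator-negative and 4015 and 2064 CPM in sarcomere-rich cells. Rb1 was at 64.8 and 34.2 against 14.6 and 13.4 CPM and Gadd45a at 68.6 and 61.2 against 33.7 and 23.1 CPM. Without Malat1-rich cells Gadd45a dropped out, and with median-of-ratios size factors, which scale each sum by its median gene rather than by its total, 2 of the 10 were called. Of the other inhibitors Cdkn2c was at 55.9 and 44.9 against 79.1 and 69.6 CPM, and Cdkn2a and Cdkn2b had no UMI in any sarcomere-low cell. Ccnd1, the cyclin of the growth phase, picked after its values were seen, was at 339 and 470.0 CPM against 184 and 250.3 CPM in regulator-negative and 147 and 155 CPM in sarcomere-rich cells.

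The regulator-positive cells with Malat1 below 2% were also ordered by sarcomeric share and summed in bins. Whether differences between bins came from a gradual change of cells or from a changing mixture of cells was not tested. The bins ran from below 0.1% over 0.1 to 0.3%, 0.3 to 1% and 1 to 5% to 5% or more, with 58, 29, 24, 43 and 46 cells in the H3WT and 172, 54, 65, 91 and 48 in the H3R26C library. The summed mitosis level was 2496, 2121, 874, 113 and 80.01 CPM in the H3WT bins and 2812, 1641, 692, 289 and 76.1 CPM in the H3R26C bins, and so fell at every step in both. Mymk rose at every step, with 100.1, 246, 598, 959 and 1766 CPM and with 28.8, 213, 426, 881 and 1221 CPM. Myod1 had no steady direction, with 384, 280.3, 277, 526 and 405 CPM and with 294, 307, 356, 414 and 326 CPM. Cdkn1a was at 850.3, 947, 1982, 3754 and 4330.0 CPM and at 426, 943, 1466, 2229 and 2107 CPM, highest above 1% in both libraries. Sox8 was at 105, 46.4, 76.1, 13.1 and 0 CPM and at 60.5, 44.2, 34.5, 14.2 and 0 CPM, with no UMI in either uppermost bin. In both libraries the bin with the least sarcomeric RNA held the most mitotic and Sox8 RNA and the least Mymk RNA. For Mymk this is a description only, since its UMIs helped to choose the cells.

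**Figure D4:**
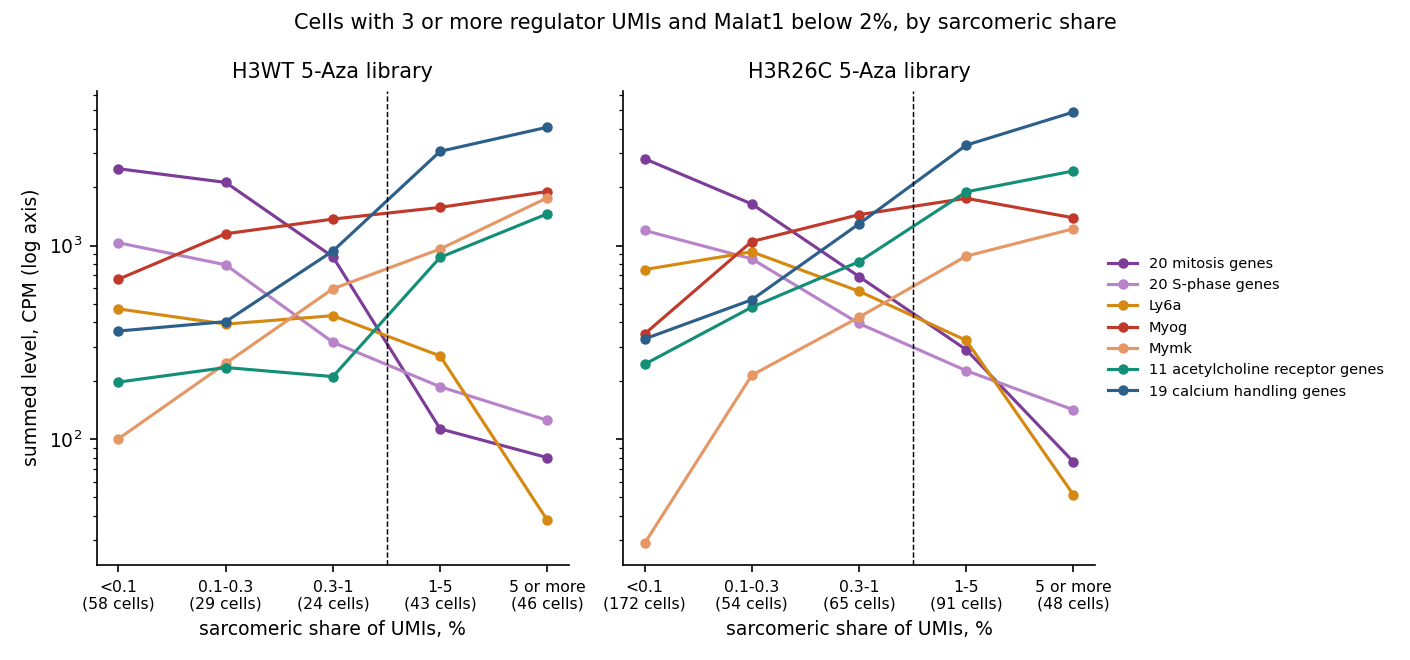
Regulator-positive cells with Malat1 below 2% of UMIs, binned by sarcomeric share on the x axis (cells per bin in brackets), with summed levels in CPM on a log y axis; the dashed line marks the 1% limit. The mitosis line falls from 2496 to 80.0 CPM and from 2812 to 76.1 CPM from the first to the last bin, while Mymk rises.

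The sarcomere-low cells with Malat1 below 2% were also ordered by regulator UMIs. For sums of 3, of 4 to 5, of 6 to 9 and of 10 or more UMIs there were 28, 19, 15 and 49 and 57, 47, 29 and 158 cells. The progenitor surface gene Ly6a was at 780.4, 623, 701 and 199.6 CPM and at 1700.2, 1252, 834 and 351 CPM, lowest in the uppermost bin of both libraries. Cdh15 was at 34.8, 47.7, 27.1 and 125 CPM and at 32.6, 91.7, 81.6 and 165 CPM, and Chrna1 at 4.64, 6.81, 11.6 and 74.5 CPM and at 15.8, 40.6, 84.9 and 193 CPM, both highest there. The summed mitosis level had no steady direction in the H3WT bins, with 1017, 1724, 725 and 2886 CPM, and was 1880.1, 2105, 2115 and 2262 CPM in the H3R26C bins. The median depth was 14492, 13058, 17244 and 21152 UMIs and 16336, 15635, 18536 and 20744 UMIs, so the sum also moved with depth.

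Ly6a, a surface marker of the progenitors, was at 399.8 (376 to 425) and 716 (695 to 737) CPM against 1088 and 1724 CPM in regulator-negative and 144 and 234 CPM in sarcomere-rich cells. Of the 9 compared progenitor surface markers 3 were called lower, Ly6a, Ly6c1 and the growth factor receptor gene Pdgfrb, with list medians of -0.63 and -1.27. Of the matrix genes 6 of 22 were called lower, among them Dcn, which encodes decorin, at 831 and 742 against 1696 and 1675 CPM, and Eln, which encodes elastin, at 222 and 34.8 against 579 and 71.1 CPM. The list medians were -0.82 and -0.95, and -0.70 and -0.89 without Malat1-rich cells, when Eln alone was called. Spp1, which encodes osteopontin and is on the same list, was at 1118 and 4726 against 840.1 and 4934 CPM. Among cells with at least 10 regulator UMIs, a limit added after the values were seen, 13 of 22 matrix genes were called lower. Over all genes 486 of 8732 were lower at that limit, against 124 of 8752 for all sarcomere-low cells, so calls rose outside the list too. Col1a1, the main fibrillar collagen, stood at 1530.1 and 1627 CPM, between 2770.1 and 3312 in regulator-negative and 431 and 549.6 CPM in sarcomere-rich cells.

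The genes of other cell types were compared by list. Of 7 compared adipocyte genes 3 were called lower, the secreted Adipoq at 1.12 and 0.651 against 27.6 and 14.6 CPM, the fatty acid binding gene Fabp4 at 38.8 and 32.9 against 144 and 93.5 CPM and Plin4, which dropped out without Malat1-rich cells. The 8 genes with the largest fall were Adipoq, Cfd, Slpi, C3, Hp, Wfdc12, Cib3 and Fabp4. Of 5 compared smooth muscle genes 1 was called higher, Acta2, an actin that early skeletal muscle also makes, at 1322 and 1182 against 338 and 310.3 CPM, while Tagln was at 14.9 and 10.4 against 24.3 and 12.9 CPM, Myh11 at 0.373 and 0.326 CPM and Myocd, the defining cofactor, at 0. The summed smooth muscle list stood at 1485 and 1302 against 521 and 457 CPM in regulator-negative cells, led by Acta2, the adipocyte list at 303 and 138 against 393 and 248 CPM and the chondrocyte list, led by Sox9, at 203 and 155 against 342 and 216 CPM. Neither of 2 compared osteoblast genes and neither of 2 compared chondrocyte genes was called, and Sox9 was at 190.0 and 144 against 323 and 196 CPM. The summed endothelial, blood and neural markers stood at 4.1 and 5.54, 7.45 and 8.96 and 3.73 and 3.91 CPM, led by Cdh5, Cd68 and Tubb3, with none high enough to compare. Of 14 immediate early genes 1 was called lower, Nr4a1, and none without Malat1-rich cells, and of 11 interferon-stimulated genes none in either direction, with medians of -0.74 and -0.81.

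Against sarcomere-rich cells, 742 of 8346 genes (8.89%) were at least 2-fold higher in sarcomere-low cells of both libraries and 258 (3.09%) at least 2-fold lower. The median over all genes was itself shifted to 0.34 and 0.31, and with median-of-ratios size factors, which remove that shift, the split turned to 311 higher and 412 lower. Genes are therefore read beside the shift. Here too a gene near 0 in sarcomere-rich cells reaches the minimum only by being high in sarcomere-low cells, and the reverse, so the counts describe the genes that passed. All 19 compared mitosis genes were higher in sarcomere-low cells under both scalings, and the 8 with the largest rise over all genes were Mki67, Kif23, Pclaf, Incenp, Mcm5, Cdc20, Kif11 and Birc5, all of replication or mitosis. Mki67 was at 127 and 131 CPM in sarcomere-low and 3.06 and 6.97 CPM in sarcomere-rich cells, and Birc5, which encodes survivin, at 129 and 210.4 against 3.06 and 17.2 CPM. Of 16 S-phase genes 15 were higher, and 14 with median-of-ratios. Without Malat1-rich cells on either side 875 of 8124 genes (10.8%) were higher and 300 (3.69%) lower, and again all 19 mitosis genes were higher.

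In the other direction, 33 of 37 compared sarcomeric genes outside the rule were lower in sarcomere-low cells (35 with median-of-ratios), as were 13 of 16 calcium genes (15), 11 of 13 energy genes and 5 of 10 receptor genes (6). The 8 with the largest fall were Pgam2, Ckm, Cox6a2, Mb, Myl4, Tnnc1, Smpx and Ankrd2. Pgam2, the muscle phosphoglycerate mutase, was at 5.96 and 2.44 against 196 and 119.6 CPM, and Cox6a2, the muscle subunit of cytochrome oxidase, at 24.6 and 29.5 against 937 and 613 CPM. These genes of glycolysis, respiration and contraction were thus far lower in sarcomere-low cells, whereas Cdh15 differed little. Of the matrix genes 13 of 22 were higher in sarcomere-low cells, but 7 with median-of-ratios, and of the progenitor markers 5 of 9, but 4.

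Between the libraries, H3R26C sarcomere-low cells were at least 2-fold higher than H3WT ones for 61 of 3255 genes (1.87%) and at least 2-fold lower for 125 (3.84%) among genes that averaged 50 CPM or more. With median-of-ratios the split was 76 and 77. Without Malat1-rich cells it was 54 (1.67%) and 97 (3.01%) of 3224 genes, and in cells without regulator RNA 70 (2.14%) and 75 (2.29%) of 3274, or 70 (2.15%) and 87 (2.67%) of 3262 without Malat1-rich ones. The rule is the same in both libraries, but each difference is between 1 library and 1 other.

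None of the 4 regulators and none of the 5 compared sarcomeric genes of the rule was among them, and Myog differed by -0.28, Myod1 by 0.01, Mymk by -0.58 and Mymx by 0.86 on the log2 scale. The 8 genes with the largest rise were Crabp1, Ifi27l2a, Tes, Cd200, Alox5ap, Ly6e, Efemp1 and Cxcl13. Ifi27l2a, an interferon-stimulated gene, was at 48.1 and 418 CPM, and all 4 compared interferon-stimulated genes were higher in the H3R26C library, with a median log2 ratio of 2.06. The median of the same list without Malat1-rich cells was 1.97 in sarcomere-low and 2.02 in regulator-negative cells, so this difference ran through both groups of cells. Crabp1, which binds retinoic acid, was at 8.2 and 95.3 CPM in sarcomere-low and 11.2 and 269.6 CPM in regulator-negative cells. Cd200, a surface glycoprotein gene, was at 11.6 and 93.5 CPM in sarcomere-low against 0.247 and 7.29 CPM in regulator-negative cells, and the chemokine gene Cxcl13 at 22.7 and 131 against 0.667 and 3.95 CPM, both higher than in regulator-negative cells of each library. In sarcomere-rich cells Cd200 was at 3.06 and 89.8 CPM and Cxcl13, higher than in sarcomere-low cells, at 99.7 and 940.5 CPM.

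The 8 genes with the largest fall were Rian, Fos, Meg3, Zfp36, Mfap5, Eln, Gm26917 and Gm28653. Fos, an immediate early transcription factor gene, was at 331 and 15.8 CPM in sarcomere-low and 514 and 47.4 CPM in regulator-negative cells, and 6 of 10 immediate early genes were lower in the H3R26C library. Part of the list moved with the Malat1-rich cells. Rian was at 164 and 6.35 CPM with and 11.6 and 5.78 CPM without them, Meg3 at 238 and 23.1 and 54.6 and 21.5 CPM, and Gm26917 at 2876 and 485 and 113 and 219 CPM, where the order of the libraries turned. Of the sarcomeric genes outside the rule 8 of 17 were lower and 0 higher in the H3R26C library with the Malat1-rich cells. Without them 3 of 9 were lower and 1 was higher. Of the receptor genes 1 of 3 was higher with them and 3 of 3 without, Chrna1 at 42.5 and 131, Chrng at 22.2 and 95.2 and Chrnd at 31.4 and 73.5 CPM.

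The place of the sarcomere-low cells among all cells of their library was read from the 15 nearest neighbours on 20 principal components, with the 10 genes of the rule left out. Of their neighbours 39.4% and 53.6% had at least 3 regulator UMIs, although such cells made up 4.14% and 6.46% of the kept cells, and 44.7% and 33% had none. For sarcomere-rich cells the regulator-positive share of neighbours was 93.4% and 97%, and for cells without regulator RNA 0.676% and 1.23%. With all muscle lists left out as well the share for sarcomere-low cells was 35.4% and 51.9%. Among those with Malat1 below 2% the share was 32.5% and 51.7%, and 26.6% and 49.6% without the muscle lists. Of these 111 and 291 cells 27% and 54.3% had a neighbourhood that was at least 50% regulator-positive, and 23.4% and 50.9% without the muscle lists.

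The neighbours differed with the sum of regulator UMIs. Sarcomere-low cells with Malat1 below 2% and a sum of at least 10, 49 and 158 cells, had 61.2% and 78.6% regulator-positive neighbours. With 30 neighbours, with 10 components or without the muscle lists that share was 54.1% to 55.2% and 72.6% to 75.1%, and sarcomere-low cells alone made up 46.8% to 49.1% of the neighbours in the H3WT library, against 56.9% before. Those with a sum of 3 to 5, 47 and 104 cells, had 9.65% and 15.1%, and 74.8% and 65.3% of their neighbours carried no regulator UMI. Malat1-rich sarcomere-low cells had 58.2% and 69% regulator-positive neighbours, and 83.4% and 83% of their neighbours were Malat1-rich. Of all kept cells 82.6% and 73.5% carried no regulator UMI, and 4.14% and 6.46% were regulator-positive. Cells with a sum of 3 to 5 thus had fewer regulator-negative and more regulator-positive neighbours than these shares. Without the muscle lists their neighbours were 80.4% and 66.5% regulator-negative and 5.11% and 14.7% regulator-positive. In the H3WT library, with 47 such cells, little of the difference was then left. Of the cells with a sum of at least 10, 57.1% and 84.8% had a neighbourhood that was at least 50% regulator-positive, 51% and 78.5% without the muscle lists and 46.9% and 79.7% with 30 neighbours.

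**Figure D5:**
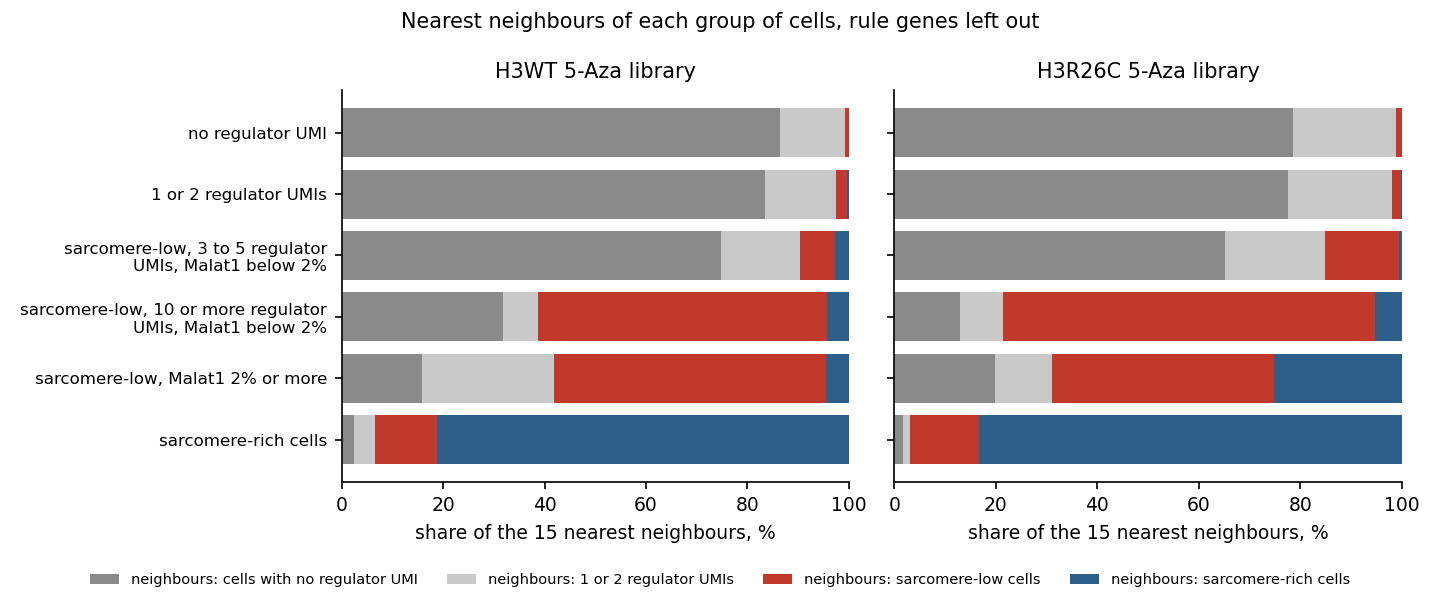
Share in percent of the 15 nearest neighbours of each group of cells that were regulator-negative, had 1 or 2 regulator UMIs, were sarcomere-low or were sarcomere-rich, in each 5-Aza library. Sarcomere-low cells with 3 to 5 regulator UMIs have a smaller regulator-negative share of neighbours than the 82.6% and 73.5% among all kept cells. Those with 10 or more have mostly sarcomere-low or sarcomere-rich neighbours.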

How the data were processed

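Single-cell RNA-seq counts of 4 libraries were analysed, H3WT and H3R26C MPC each with DMSO or 5-Aza. The authors made the deposited UMI counts with Cell Ranger, version 6 in the submitters' processing notes and 6.1.0 in the file headers, on the mm10 (GRCm38) reference, and the notes also name Seurat 4. The deposited matrices hold whole-number counts of 32285 genes without normalization, before any cell filter of the study. No column was left unmapped.

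Cells were kept and classed by the rule given at the start of the results, with Python 3.11.15, numpy 2.4.6, scipy 1.17.1, pandas 2.3.3, scikit-learn 1.9.0 and matplotlib 3.10.9. Counts were summed over the cells of a class and library and scaled to CPM, and log2 ratios used a pseudocount of 1 CPM. With 1 library per condition nothing was tested: a gene was called at 2-fold in the same direction in both 5-Aza libraries, levels have exact Poisson intervals, shares have Clopper-Pearson intervals, and ratios have conditional binomial intervals. Shares of cells with a UMI were taken after thinning each cell to 5000 UMIs. Neighbours were taken within a library on log-normalized counts of 2000 variable genes. The limit for a share of 0 is 3 counts.

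The members, the gene lists and the limits were chosen with earlier results of these data known. Besides the lists, genes were named by rank: 12 up and 8 down against cells without regulator RNA, and 8 in each direction in the other contrasts. The Malat1 limit, the limit of 10 regulator UMIs and the genes said to be picked after their values were seen were added later. Alternatives changed the rule's limits, the cell filter, the thinning, the pseudocount, the minimum level and the scaling. The methods were tested on simulated data.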

Additional observations from a re-analysis of the deposited data

Results flagged for a closer look

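Meg3, a maternally expressed noncoding RNA, differed in direction between the 2 libraries: against cells without regulator RNA its log2 ratio in sarcomere-low cells was 1.32 in H3WT 5-Aza and -1.32 in H3R26C 5-Aza, and the difference was not tested. Its level was 238 and 23.1 CPM in sarcomere-low cells and 95 and 59.1 CPM in cells without regulator RNA. In the Malat1-rich sarcomere-low cells it was 856 and 44.2 CPM and in the other sarcomere-low cells 54.6 and 21.5 CPM, against 92.9 and 58.5 CPM in cells without regulator RNA and with Malat1 below 2%. Without Malat1-rich cells the log2 ratio was therefore below 0 in both libraries, -0.76 and -1.40.

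Barcodes outside the cell filter, which entered no result but the lowered cell filter of 1000 UMIs, also carried regulator RNA: 460 of 9009 in H3WT 5-Aza and 488 of 4491 in H3R26C 5-Aza had at least 3 regulator UMIs, and none of 2529 and 1813 in the DMSO libraries. Their median was 1352 and 1494 UMIs, and 405 and 440 of them had at least 1% sarcomeric UMIs, which leaves 55 and 48 that the sarcomeric limit of the rule would take.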

How the results depend on the processing

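The share of sarcomere-low cells followed its limits, while the ratio of the shares, 1.69, ran from 1.69 to 1.86 under the alternatives that kept the Malat1-rich cells and was 2.08 without Malat1-rich cells. The shares in H3WT and H3R26C 5-Aza were 4.22% and 7.27% from 2 regulator UMIs, 1.74% and 3.08% from 5, 2.12% and 3.65% below 0.5% sarcomeric UMIs, 1.32% and 2.45% with each cell thinned to 5000 UMIs, 2.10% and 3.71% with cells from 1000 UMIs and 500 genes, and 2.13% and 3.77% without the deepest 5% of cells. In H3R26C 5-Aza the share was 4.82% below 2% sarcomeric UMIs and 4.87% among cells of at least 10000 UMIs, and in H3WT 5-Aza it was 2.01% without Malat1-rich cells. Sarcomere-low cells as a share of regulator-positive ones, 61.3% and 66.3%, were 71.9% and 76.9% from 2 regulator UMIs, 53.1% and 59.3% from 5, 51.2% and 56.5% at 0.5%, 69% and 74.6% at 2%, 48.2% and 54% thinned, 31.5% and 42.4% from 1000 UMIs, and 71.3% in H3R26C without the deepest cells. Against cells without regulator RNA, 64 genes were lower with a pseudocount of 5 CPM, 322 for cells with at least 5 regulator UMIs and 73 without the deepest cells. The counts higher and lower were 442 and 187 from a mean of 1 CPM, 80 and 64 from 50 CPM, 447 and 191 with no minimum, and 397 and 486 for cells with at least 10 regulator UMIs. Against sarcomere-rich cells, 484 genes were higher with 5 CPM, 1241 from 1 CPM, 209 (and 135 lower) from 50 CPM, 1260 with no minimum, 311 (and 412 lower) with median-of-ratios and 474 for at least 10 regulator UMIs. Between the libraries the counts were 565 and 975 from 1 CPM, 662 and 1077 with no minimum, and 77 lower with median-of-ratios. Gm26917 turned to a log2 difference of 0.95 between the libraries without Malat1-rich cells. The other values were those of single genes and the counts of DMSO cells that met the rule. Of these, 746 kept their direction and their side of 2-fold or, for the DMSO counts, still found no cell. Another 3, all of single genes, dropped under 2-fold: Cib3 with a pseudocount of 5 CPM, Wfdc12 with thinned cells and Rian without Malat1-rich cells. The settings without Malat1-rich cells, with at least 10 regulator UMIs, and every alternative against sarcomere-rich cells were chosen after seeing the data. The regulator-positive share of neighbours, 39.4% and 53.6%, was 35.4% to 38% and 50.7% to 51.9% with 30 neighbours, with 10 components and with all muscle lists left out.

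No paired analysis was possible because the design has 1 library in each condition, and for the same reason no replicate was left out. Counting intervals hold no variation between cultures. Cells under 5000 UMIs, where 1 regulator UMI is often missed, were outside the rule, and a cell with 3 regulator UMIs can lie on either side of the limit by capture alone.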
